A study of Homo sapiens with 6 samples.

Results

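SR proteins and hnRNP proteins are the main families of RNA-binding proteins that decide which exons are kept in an mRNA. The genes described here are the rows of the deposited expression table whose symbol is SRSF or HNRNP followed by letters or digits, without numbered pseudogenes, together with TRA2A and TRA2B. The rule found 37 genes among 16834, of which 14 belonged to the SR family and 23 were named as hnRNPs. These 37 rows carried 36 symbols, because HNRNPA1L2 stood on both a protein-coding row (ENSG00000139675) and an overlapping row (ENSG00000273784) that GENCODE 44 annotates as a lncRNA. All 37 had at least 10 reads in every library, and the lowest count of any of them was 27 reads.

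The samples were 3 Flag-IPs and 3 HA-IPs of unsynchronised HEK293-T Flp-In cells, a human embryonic kidney line with an epithelial-like form. Every sample carried the same single-copy insertion of ccTaggedRP, which is driven by the CAG promoter and encodes both tagged forms of the mouse ribosomal protein RPL10a in 1 reading frame, separated by a self-cleaving peptide. The Flag-tagged form carries a fragment of human Cdt1 and was designed to persist in G1 and early S, while the HA-tagged form carries a fragment of human Geminin and was designed to persist in S, G2 and M. RNA bound to ribosomes with either tag was pulled down, selected for poly(A) and sequenced, so that each value is an amount of ribosome-associated mRNA relative to the rest of the same library, and no input RNA or untagged control was analysed here. Nothing in the labels says that the replicates were separate cultures, and p-values then measure only the spread between these libraries. In such pull-downs fewer tagged cells of a kind and less bound RNA per cell cannot be told apart.

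SR proteins carry RNA recognition motifs and a tail rich in arginine and serine, and many of them promote the use of an exon when bound to enhancers within it. The hnRNPs coat nascent transcripts, and many of them repress exons, although both families act in either direction depending on where they bind. Members of both families also shuttle to the cytoplasm and act in export, translation and decay. Many of these genes restrain their own output by splicing in or out segments that send the transcript to nonsense-mediated decay. In GENCODE 44 at least 1 transcript subject to that decay was annotated for 14 of the 14 SR family genes (100%) and for 14 of the 23 hnRNP genes (60.9%), against 46.2% of the 13859 protein-coding genes in the table.

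The libraries held 23174532 to 44134833 reads on the listed genes. Cell line markers such as KRT8 and VIM were present in both groups, and 0 of 7 passed the limma test in either direction (KRT8, higher in the HA-IPs, was the 1 at an unadjusted p under 0.05). Heart muscle markers, which an embryonic kidney line should lack, were present as well, and 21 of the 26 on that list were in the table. Their summed level was 101950 to 213453 normalized counts in the Flag-IPs and 2161 to 20196 in the HA-IPs, with CSRP3 at 0 in HA-IP replicates 1 and 2, and all 21 were called higher in the Flag-IPs. Fibroblast markers (7 of 10 called higher in the Flag-IPs, summed levels 6863 to 9450 against 3390 to 4091) and endothelium markers (6 of 9, 529 to 662 against 359 to 384) moved the same way in their sums. On the fibroblast list 2 genes, COL6A3 (log2 difference 0.62) and PDGFRA (0.14), were higher on average in the HA-IPs without being called. Of the adult kidney markers 4 of 9 were in the table, with 1 called higher and 2 called lower in the HA-IPs. The part of this RNA in the differences below was not tested.

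The families were abundant. The 37 genes took 1.91% to 2.09% of all normalized counts, and hnRNP genes made up 1.60% to 1.81%. Levels of different genes are compared here as normalized counts per kb of the canonical transcript. HNRNPA1, which represses exons and also acts in mRNA export, had the highest mean level of the hnRNPs over the 6 libraries, with 16711 per kb in the Flag-IPs and 17735 in the HA-IPs. It was followed by HNRNPK, a binder of C-rich sequences, with 15831 and 18562 per kb, and by HNRNPM with 16370 and 17413. These 3 overlapped one another in their library values. Compared within each library, HNRNPA1 was above HNRNPK in every Flag-IP and below it in every HA-IP, so their order differed between the IPs. HNRNPM changed place with HNRNPA1 between libraries of the same group. These orders were not tested. The SR family reached lower levels, led by SRSF5 with 5656 and 5709 per kb, SRSF9 with 4898 and 4923, and SRSF2 with 4089 and 4962. At the bottom lay SRSF12 (108 and 104 per kb) and the copies of HNRNPA1 (51 to 234 per kb as group means).

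**Figure D1:**
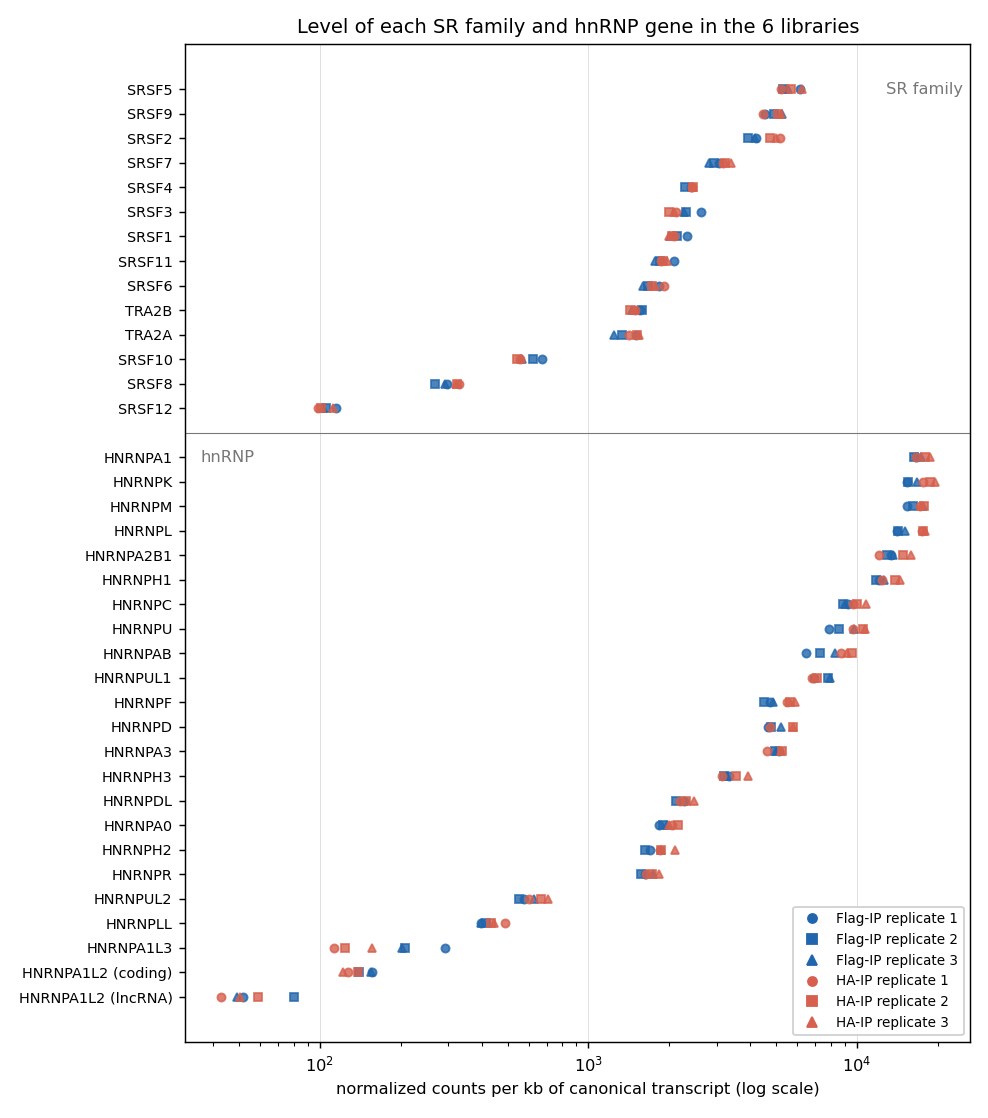
Normalized counts per kb of canonical transcript (log axis) for the 14 SR family genes (top) and 23 hnRNP genes (bottom), 1 point per library, blue for the 3 Flag-IPs and red for the 3 HA-IPs. The points run from 42.8 per kb (the lncRNA row of HNRNPA1L2 in HA-IP replicate 1) to 19463 per kb (HNRNPK in HA-IP replicate 3), and the gap between the groups is small beside the gap between genes.

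The study used the tags to ask which mRNAs are bound to ribosomes in which phase of the cell cycle. Between the IPs, 5 members were called higher in the HA-IPs (SRSF2, HNRNPAB, HNRNPL, HNRNPF and HNRNPK) and 2 higher in the Flag-IPs (SRSF3 and HNRNPA1L3), at an adjusted p of at most 0.05 from limma over all 16834 genes. The same test called 5.79% of all genes higher in the HA-IPs and 7.1% higher in the Flag-IPs, and the members' rates were 13.5% and 5.41%. Abundant genes were called more often, with 14.4% and 7.42% of the 5959 genes whose mean was at least 1000 normalized counts. The members' share called higher in the HA-IPs was near that of this set, which was not matched to the members in level. The differences were small, and apart from HNRNPA1L3 the largest among the called genes was 1.25-fold (HNRNPAB). Leaving out Flag-IP replicate 2 reduced the calls to HNRNPL and HNRNPA1L3, and limma without the mean-variance trend called 0 members (lowest adjusted p 0.076), with 10 higher and 3 lower in the HA-IPs at an unadjusted p under 0.05. DESeq2 called 7 and 2 members, and edgeR called 5 and 2, on the recovered reads.

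Of the 23 hnRNP genes 19 had a positive log2 difference (HA-IPs minus Flag-IPs) and 4 a negative one, with a median of 0.12, and 3 of those 4 were copies of HNRNPA1. Of the 14 SR family genes 9 were positive and 5 negative, with a median of 0.01. Over all genes 49.1% were positive with a median of -0.0049, and over the 5959 abundant genes 63.6% were positive with a median of 0.05, against 82.6% of the hnRNP and 64.3% of the SR family genes. The difference between the families was not tested. The hnRNP median stayed between 0.05 and 0.19 under every alternative run, and at the low end, with quantile normalization (0.053), the median over all genes was 0.044, so that little was left of the gap between them. The SR family median changed sign with quantile normalization (-0.02), with scaling to the same total (-0.04) and without HA-IP replicate 3 (-0.02). The HA-IP values lay wholly above the Flag-IP values for 7 hnRNP and 4 SR family genes, and wholly below for 2 of each. That was 29.7% and 10.8% of the 37 members, against 16.1% of all genes for each direction and 31.8% and 14.6% of the abundant genes. The members were thus near the shares of the abundant genes. HA-IP replicate 1 stood apart from its group: the median over the hnRNP genes of the log2 value, centred on each gene's mean, was -0.05 there, against 0.08 and 0.16 in the other HA-IPs and -0.09, -0.10 and about 0 in Flag-IP replicates 1, 2 and 3. That library was also the deepest.

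**Figure D2:**
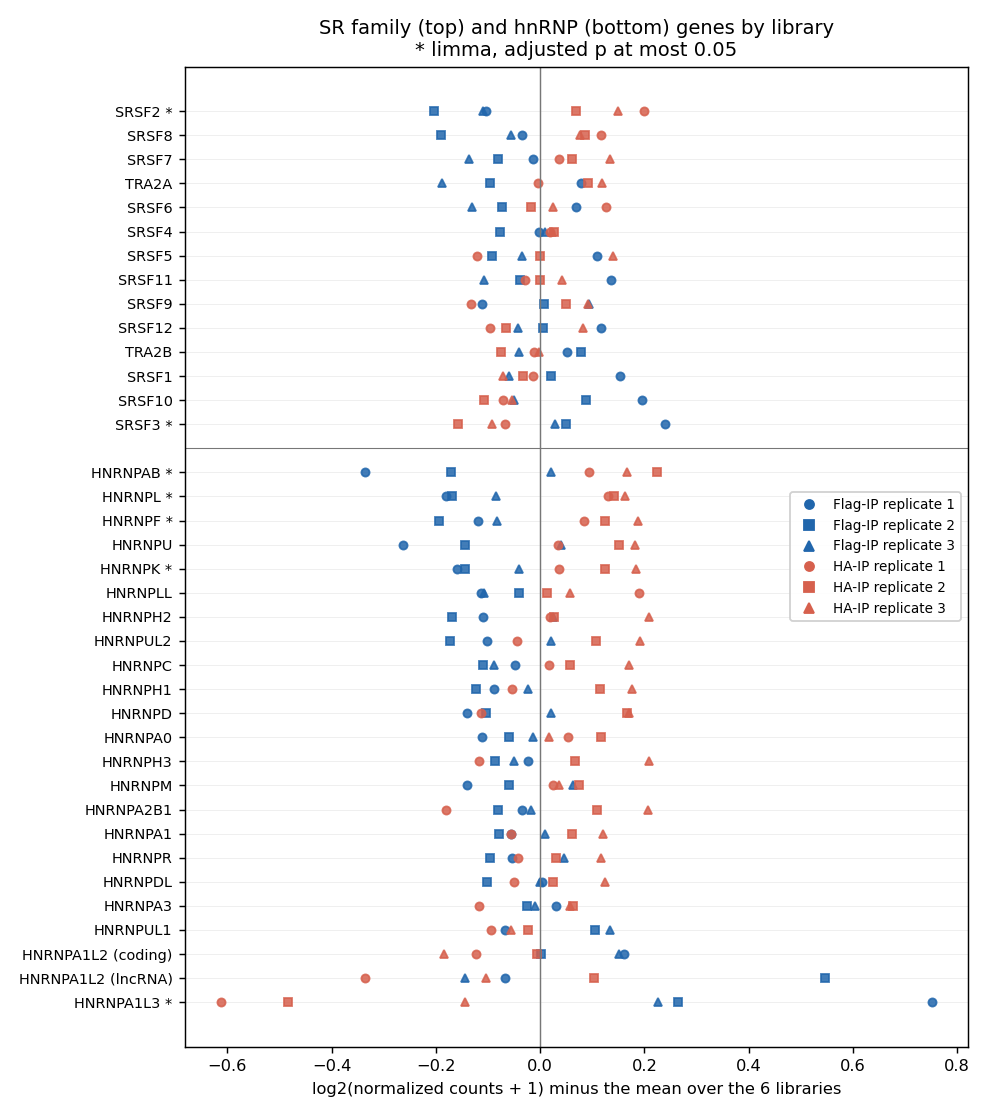
Each gene's log2(normalized counts + 1) in each library minus its mean over the 6 libraries, for SR family genes (top) and hnRNP genes (bottom). Genes with an asterisk passed the limma test, and their blue (Flag-IP) and red (HA-IP) points do not overlap; HA-IP replicate 1 (red circle) lies among or below the Flag-IPs for HNRNPA2B1, HNRNPA3, HNRNPD and HNRNPH3.

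**Figure D3:**
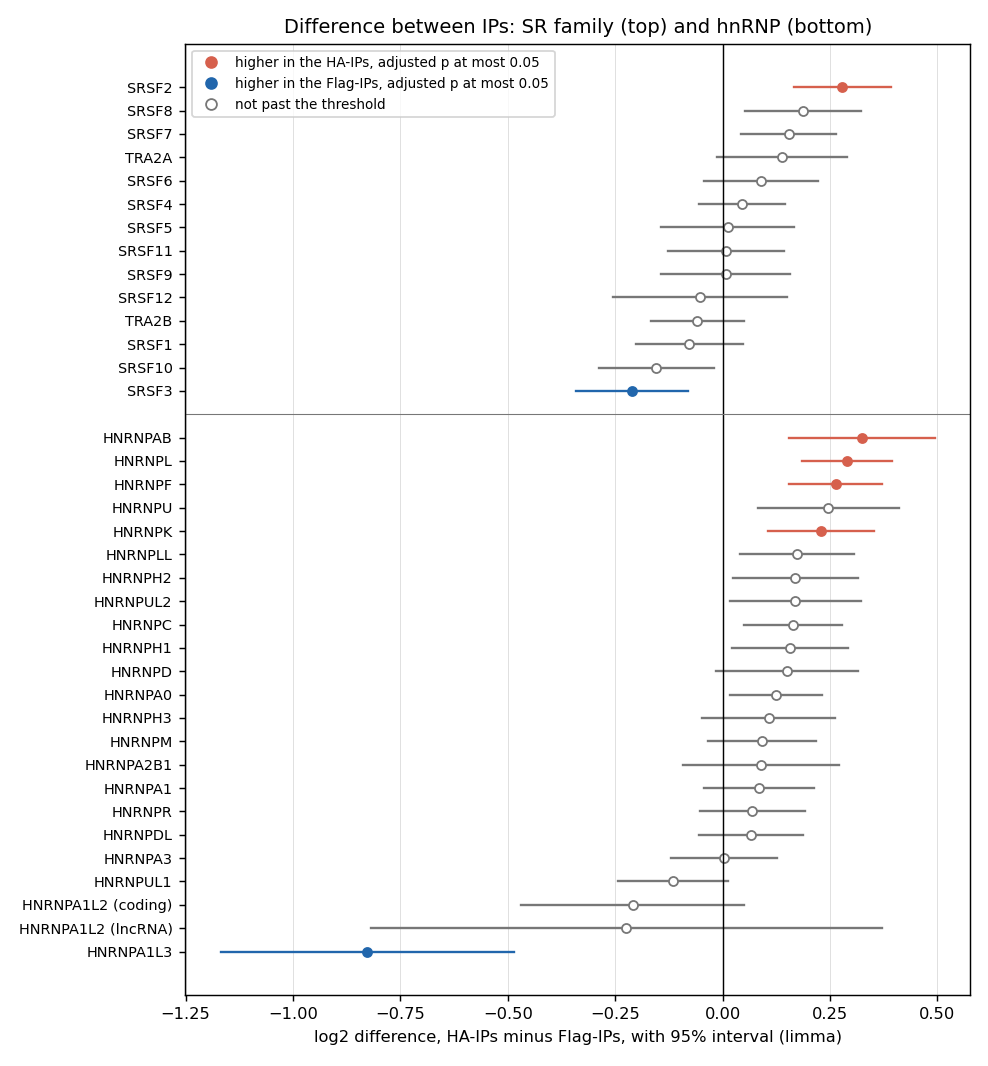
Log2 difference, HA-IPs minus Flag-IPs, with its 95% interval from limma, ordered within each family. Filled points passed the adjusted p of 0.05; 19 of 23 hnRNP genes lie right of 0, while the SR family runs from 0.28 (SRSF2) to -0.21 (SRSF3).

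SRSF2 and SRSF3 marked the ends of the SR family. SRSF2 (chr17:76734115-76737333, minus strand, GRCh38) binds exonic enhancers and has been linked to pausing of RNA polymerase II. Its normalized counts were 7909, 7380 and 7873 in Flag-IP replicates 1, 2 and 3, against 9761, 8916 and 9425 in the HA-IPs. All HA-IPs were above all Flag-IPs. The log2 difference was 0.28 ± 0.05 (SE), with an adjusted p of 0.0063 from limma, and it kept its call in 5 of the 6 fits that left out 1 library (0.052 without Flag-IP replicate 2). The exons of SRSF2 share 27.7% of their bases with MFSD11 on the opposite strand, and since the sources used here do not say whether reads were counted by strand, the 2 cannot be fully told apart. MFSD11 itself had 993 normalized counts in the Flag-IPs and 1084 in the HA-IPs (adjusted p 0.32, limma).

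SRSF8, an intronless copy of SRSF2, had a log2 difference of 0.19 ± 0.06 with an adjusted p of 0.068 (limma), and its groups did not overlap either.

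SRSF3 (chr6:36594353-36605600, plus strand), the smallest SR protein and an adaptor for mRNA export, lay on the other side. Its counts were 11108, 9747 and 9597 in the Flag-IPs, against 8984, 8442 and 8827 in the HA-IPs, so that every HA-IP was below every Flag-IP and Flag-IP replicate 1 was the highest. The log2 difference was -0.21 ± 0.06 (adjusted p 0.039, limma), and it passed in only 1 of the 6 fits without 1 library (adjusted p up to 0.17). SRSF7, a close relative that also binds the export receptor, had 7233, 6902 and 6639 in the Flag-IPs, against 7482, 7614 and 8006 in the HA-IPs. The groups of SRSF7 did not overlap, and the difference of 0.15 ± 0.05 did not reach the threshold (adjusted p 0.069, limma). SRSF10, which in its unphosphorylated form represses splicing, had a difference of -0.15 ± 0.06 (adjusted p 0.13, limma) with no overlap.

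The remaining SR family genes did not pass the test. SRSF1, the founding SR protein, had 12481, 11382 and 10768 in the Flag-IPs, against 11115, 10968 and 10684 in the HA-IPs. Its groups overlapped, and the 95% interval of the log2 difference ran from -0.20 to 0.05. SRSF5, the most abundant per kb, had 9152, 7956 and 8276 against 7802, 8480 and 9339, with an interval from -0.14 to 0.17. SRSF9, a relative of SRSF1, had 5226, 5672 and 6029 in the Flag-IPs, against 5151, 5846 and 6017 in the HA-IPs, nearly the same span, with an interval from -0.14 to 0.16. The exons of SRSF9 share 43.6% of their bases with GATC on the opposite strand.

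TRA2A and TRA2B encode the human relatives of the fly regulator Transformer-2 and bind GAA-rich enhancers. TRA2A had 2680, 2375 and 2229 in the Flag-IPs, against 2532, 2706 and 2759 in the HA-IPs, with Flag-IP replicate 1 inside the HA-IP range (log2 difference 0.14, interval -0.01 to 0.29). It was called with GC and length trends removed (0.20, adjusted p 0.018, limma) and without Flag-IP replicate 1 (0.21, adjusted p 0.029, limma). TRA2B had 6487, 6611 and 6084 against 6210, 5945 and 6247, again with overlap (interval -0.17 to 0.05). SRSF4, SRSF6 and SRSF11 had differences of 0.05, 0.09 and 0.01, and SRSF12 had -0.05, with adjusted p-values of 0.38 to 0.95 (limma). The groups of SRSF4 did not overlap, at 5246 to 5567 normalized counts in the Flag-IPs and 5606 to 5632 in the HA-IPs.

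Among the hnRNPs the 4 called genes act in different steps. HNRNPL binds CA repeats and both activates and represses exons. Its counts were 30234, 30484 and 32316 in the Flag-IPs, against 37495, 37812 and 38349 in the HA-IPs. The groups were tight and far apart, and HNRNPL was the only member higher in the HA-IPs that kept its call in all 6 fits without 1 library (log2 difference 0.29 ± 0.05, adjusted p 0.0036, limma). Some 23.3% of the 150-base windows of its canonical transcript also occur in transcripts of other genes (a readthrough gene, ENSG00000268083, and the pseudogene HNRNPLP2). Read pairs from such windows may have been dropped or assigned elsewhere.

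HNRNPAB, also called CBF-A, binds RNA trafficking elements and can act on promoters. It had 11450, 12846 and 14675 normalized counts in the Flag-IPs, against 15433, 16895 and 16238 in the HA-IPs. The Flag-IPs were spread over a wide range that ended just below the HA-IPs. The log2 difference was 0.32 ± 0.08 (adjusted p 0.020, limma), and only 2 of the 6 fits without 1 library kept the call (adjusted p up to 0.10).

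HNRNPF binds G-tracts and often enhances the exons near them. Its values were 12206, 11592 and 12523 in the Flag-IPs, against 14048, 14444 and 15101 in the HA-IPs, without overlap. The log2 difference was 0.26 ± 0.05 with an adjusted p of 0.0070 (limma), kept in 5 of the 6 fits. HNRNPK, whose KH domains bind C-rich RNA, had 44288, 44804 and 48111 in the Flag-IPs, against 50710, 53939 and 56229 in the HA-IPs, with no overlap. Its log2 difference of 0.23 ± 0.06 (adjusted p 0.023, limma) was kept in 3 of the 6 fits, and quantile normalization lowered it to 0.08 (adjusted p 0.26).

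HNRNPU, the nuclear matrix protein SAF-A, had a difference of the same size that missed the threshold. Its counts were 53983, 58661 and 66606 in the Flag-IPs, against 66381, 72020 and 73522 in the HA-IPs, so that Flag-IP replicate 3 just exceeded HA-IP replicate 1. The log2 difference was 0.25 ± 0.07 (adjusted p 0.053, limma), and DESeq2 called it (adjusted p 0.00996). Of the 6 limma fits without 1 library only 1 called it (adjusted p up to 0.19). HNRNPC, which competes with U2AF for uridine tracts, had 29294, 28060 and 28502 in the Flag-IPs, against 30659, 31509 and 34103 in the HA-IPs. Its groups did not overlap, and its difference of 0.16 ± 0.05 had an adjusted p of 0.064 (limma).

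HNRNPA0 and HNRNPLL also did not overlap between the groups, with log2 differences of 0.12 and 0.17 that did not pass (adjusted p 0.12 and 0.086, limma). HNRNPA1, HNRNPA2B1 and HNRNPM overlapped. HNRNPA1 had 61933, 60961 and 64807 in the Flag-IPs, against 61984, 67172 and 70045 in the HA-IPs (log2 difference 0.08, interval -0.04 to 0.21). HNRNPA2B1, its paralog with a role in sorting RNA into transport granules, had 48565, 47064 and 49168 against 43891, 53646 and 57408. HA-IP replicate 1 was thus the lowest of all 6 libraries and the other HA-IPs the highest, and the interval of the difference ran from -0.09 to 0.27. HNRNPM had 37901, 40105 and 43641 against 42511, 44026 and 42859 (interval -0.03 to 0.22).

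HNRNPH1, a G-tract binder like HNRNPF, had 26972, 26344 and 28240 in the Flag-IPs, against 27650, 31058 and 32404 in the HA-IPs (log2 difference 0.16, adjusted p 0.12, limma). HNRNPD, known as AUF1 and a regulator of AU-rich mRNAs, had 14320, 14675 and 16013 against 14583, 17717 and 17752. HNRNPDL, its neighbour on chromosome 4, had 9920, 9220 and 9896 against 9553, 10071 and 10789. In both pairs of values the HA-IPs reached higher but replicate 1 lay among the Flag-IPs. HNRNPUL1 was the only hnRNP gene outside the HNRNPA1 copies with a negative difference, at -0.11 ± 0.06 (adjusted p 0.23, limma).

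Promoter sequences of the called genes are shown as a description, marked for a short sequence that many hnRNP promoters held. That sequence was picked after the counts were seen, and the selection of genes did not use it. A link between promoter sequence and the differences between the IPs was not tested. RefSeq promoters, from 250 bases before to 50 bases after the start on GRCh38.p14, were matched for 32 of the 36 symbols (not HNRNPA1, HNRNPA1L3, SRSF2 or TRA2A). The letters CCAAT, the core of the box bound by NF-Y, occurred on either strand in 13 of 20 hnRNP promoters (65.0%) and in 2 of 12 SR family promoters (16.7%). The same letters were in 36.5% of the 11687 promoters matched to genes in the table and in 35.7% of all 27305. Of the called genes, HNRNPAB (higher in the HA-IPs) and SRSF3 (higher in the Flag-IPs) had 2 copies within the last 130 bases before the start. HNRNPF and HNRNPL had 1, and HNRNPK had none there. The stretches below give those 130 bases, 5′ to 3′ on the gene's strand, with CCAAT or its reverse complement in capitals.
HNRNPAB (chr5:178204403-178204532, plus strand): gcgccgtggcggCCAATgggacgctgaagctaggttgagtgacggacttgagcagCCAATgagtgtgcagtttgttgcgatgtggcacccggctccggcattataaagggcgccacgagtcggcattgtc
HNRNPF (chr10:43408858-43408987, minus strand): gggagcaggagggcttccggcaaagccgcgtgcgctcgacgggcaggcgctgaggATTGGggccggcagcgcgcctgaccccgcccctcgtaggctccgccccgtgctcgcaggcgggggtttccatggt
HNRNPL (chr19:38852348-38852477, minus strand): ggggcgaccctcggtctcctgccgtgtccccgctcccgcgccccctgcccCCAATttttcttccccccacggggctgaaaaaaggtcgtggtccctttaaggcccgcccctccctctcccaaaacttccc
HNRNPK (chr9:83980616-83980745, minus strand): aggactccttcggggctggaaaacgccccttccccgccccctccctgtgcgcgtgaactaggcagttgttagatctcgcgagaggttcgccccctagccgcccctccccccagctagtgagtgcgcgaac
SRSF3 (chr6:36594232-36594361, plus strand): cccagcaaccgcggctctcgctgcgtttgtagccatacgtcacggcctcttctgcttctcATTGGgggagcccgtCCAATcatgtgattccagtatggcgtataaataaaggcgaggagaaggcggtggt
In HNRNPAB the boxes began 118 and 75 bases before the start, in HNRNPF 75, in HNRNPL 80 and in SRSF3 70 and 55. For other letters searched on both strands the gap between the families was smaller in percentage points. The GC box CCGCCC was in 80.0% of hnRNP, 50% of SR family and 69.6% of table promoters, and the ETS motif CCGGAAG in 15.0%, 16.7% and 18.2%. The cell cycle element TTTGAA (CHR) was in 5.0%, 8.33% and 9.6%, the E2F letters TTTCCCGC in 5.0%, 16.7% and 2.59%, and the TATA box TATAAA in 15.0%, 16.7% and 5.89%. With 20 and 12 promoters each of these shares rests on few sequences, and a match says nothing about binding in these cells.

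HNRNPA1L3 had the largest difference of all members. It is an intron-poor copy of HNRNPA1 (chr16:51553436-51647132, plus strand). Its counts were 561, 400 and 389 in the Flag-IPs, against 217, 238 and 301 in the HA-IPs, without overlap, with Flag-IP replicate 1 and HA-IP replicate 3 the highest of their groups. Those libraries were also the highest of their groups for the summed heart muscle markers. They were the highest for SRSF7 and TRA2A as well, whose log2 differences were positive. The log2 difference was -0.83 ± 0.16 (adjusted p 0.0070, limma), and it was kept in all 6 fits without 1 library.

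Both rows of HNRNPA1L2 were lower in the HA-IPs on average without passing the test. The coding row had 209, 187 and 208 in the Flag-IPs, against 171, 186 and 164 in the HA-IPs (log2 difference -0.21, adjusted p 0.29, limma). All of its 150-base windows also occur in other transcripts, because 100% of its exon bases lie within the lncRNA row on the same strand. Its reads may thus have been dropped or assigned to that row. Some of its windows also occur in HNRNPA1 and HNRNPA1P10, so the 100% does not measure sequence shared with other copies.

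Of 5 numbered pseudogenes of these families in the table, 4 had a negative difference, led by HNRNPA3P3 at -1.85 ± 0.38 (adjusted p 0.011, limma), and HNRNPKP4 had 0.37. HNRNPA1 itself, far more abundant than its copies, had a positive difference of 0.08.

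The coding sequences of HNRNPA1 (chr12:54280193-54287088, plus strand) and HNRNPA1L3 were 99.4% identical over 963 aligned bases, with 6 differences and a gap of 156 bases. Exact 150-base windows shared with other transcripts made up 21.2% of HNRNPA1L3 and 23.5% of HNRNPA1. How the authors' counting treated read pairs that fit several genes is not given in the sources used here.

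A ratio of related genes within a library cancels any single scaling factor of that library. Of 17 pairs, 4 had ratios that did not overlap between the groups, 1 higher and 3 lower in the HA-IPs. No such share was computed for other pairs of genes. Of single genes in the table, 16.1% lay wholly above and 16.1% wholly below in the HA-IPs. HNRNPUL1 was in both HNRNPU/HNRNPUL1 and HNRNPUL1/HNRNPUL2, so the 4 pairs were not independent. Normalizations that act on genes unequally changed that count, to 6 with quantile normalization (with the same 4 among them) and to 6 with GC and length trends removed (3 of the 4 among them). The log2 ratio of SRSF3 to SRSF7 was 0.62, 0.50 and 0.53 in the Flag-IPs, against 0.26, 0.15 and 0.14 in the HA-IPs, a difference of -0.36. The ratio of HNRNPU to its relative HNRNPUL1 moved the other way, from 0.997, 0.944 and 1.10 to 1.32, 1.37 and 1.43 (difference 0.36).

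HNRNPUL1 to HNRNPUL2 had 3.17, 3.41 and 3.25 against 3.09, 3.003 and 2.89 (difference -0.28), and HNRNPH1 to HNRNPF had 1.14, 1.18 and 1.17 against 0.98, 1.10 and 1.10 (difference -0.11). Some 44.3% of the windows of HNRNPUL2 are shared with the readthrough gene HNRNPUL2-BSCL2, which was called higher in the HA-IPs (log2 difference 0.76, adjusted p 0.042, limma). Each of the 4 pairs had a two-sided exact permutation p of 0.1, the smallest that 3 against 3 can give, and 0.38 after adjustment over the 17 pairs. The most abundant pair, HNRNPA1 to HNRNPA2B1, kept its mean ratio, with 0.37 ± 0.02 in the Flag-IPs and 0.37 ± 0.11 in the HA-IPs (SD, n = 3).

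**Figure D4:**
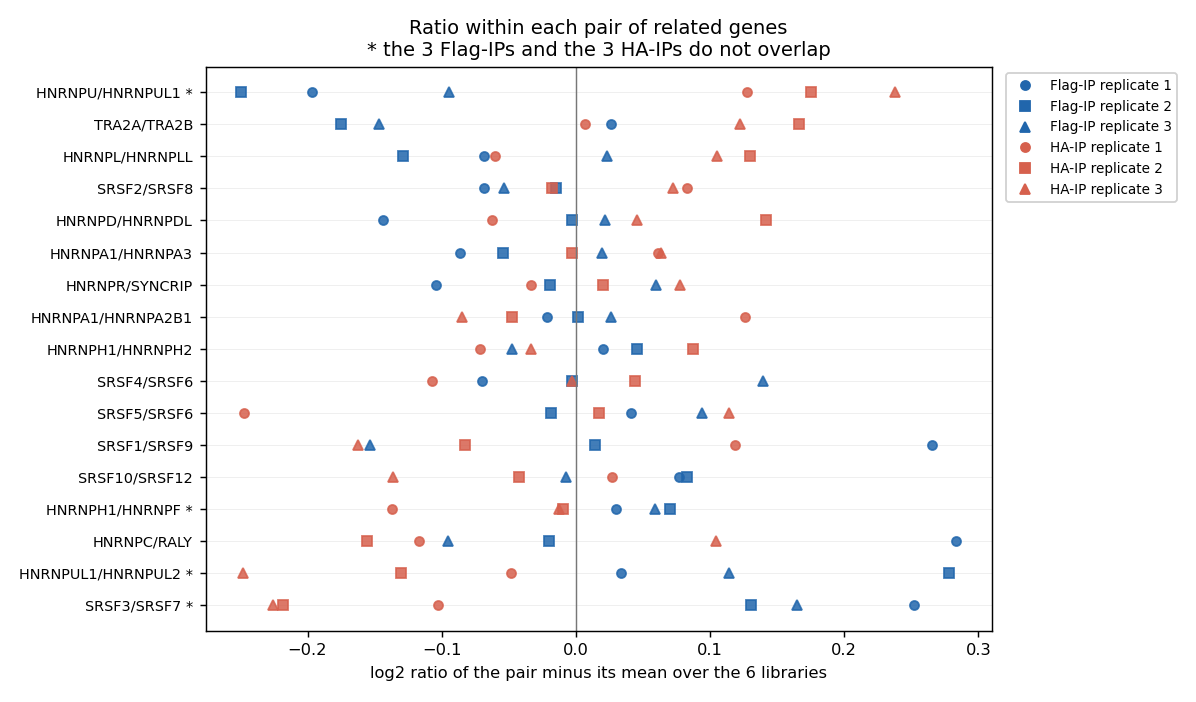
Log2 ratio within each of 17 pairs of related genes, minus the pair's mean over the 6 libraries, 1 point per library. The pairs with an asterisk do not overlap between the groups; SRSF3/SRSF7 lies 0.36 lower and HNRNPU/HNRNPUL1 0.36 higher in the HA-IPs.

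Other genes of the pathway, taken from lists, were called in both directions. Of the 88 genes tested, limma called 16 higher and 6 lower in the HA-IPs, with a median log2 difference of 0.05. These shares of 18.2% and 6.82% lay near the 14.4% and 7.42% of abundant genes, whose median was 0.05 too, and the shares of all genes were 5.79% and 7.1%. With libraries scaled to the same total the counts were 6 and 8, and with quantile normalization 7 and 7, so the balance of directions rests on the scaling. Without Flag-IP replicate 2 they were 3 and 1.

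Among 8 hnRNP proteins with other symbols 2 were higher and 0 lower in the HA-IPs by limma (4 and 1 at an unadjusted p under 0.05). They were PTBP1, the repressor that binds pyrimidine tracts (24036 ± 749 against 26846 ± 626 normalized counts, SD, n = 3; log2 difference 0.16, adjusted p 0.046, limma), and RALY, a relative of HNRNPC (0.28, adjusted p 0.040, limma). The list of 27 SR-related proteins with RS domains had 6 and 1. Its leading genes were LUC7L2 (0.23), U2SURP (0.18) and SON (0.22), a nuclear speckle scaffold, with adjusted p-values of 0.020, 0.029 and 0.036 (limma). ARGLU1 was the gene of that list higher in the Flag-IPs, with 2692, 2370 and 2136 against 1788, 1838 and 1927 (difference -0.37, adjusted p 0.011, limma).

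Of 11 kinases and import factors of SR proteins 2 were higher and 0 lower in the HA-IPs by limma (3 and 2 at an unadjusted p under 0.05). Both were importins: TNPO1, which carries HNRNPA1 into the nucleus (0.24, adjusted p 0.012, limma), and TNPO3, which carries phosphorylated SR proteins (0.16, adjusted p 0.038, limma). The kinases of the CLK and SRPK families were not called.

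Nonsense-mediated decay and exon junction factors had 4 of 15 called higher in the HA-IPs. EIF4A3, the exon junction core helicase, had 7085, 7630 and 8972 in the Flag-IPs, against 11222, 11299 and 10610 in the HA-IPs (difference 0.49 ± 0.07, adjusted p 0.0024, limma). SMG8 (0.37, adjusted p 0.0013, limma) and the helicase UPF1 (0.31, adjusted p 0.015, limma) followed. The difference of EIF4A3 was larger than that of any SR family or hnRNP gene other than HNRNPA1L3, though the sizes were not tested against each other.

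The 27 other sequence-specific regulators had 2 higher and 4 lower in the HA-IPs. KHDRBS1, known as SAM68, was higher in the HA-IPs (0.29 ± 0.05, adjusted p 0.0041, limma), as was RBM17 (0.21, adjusted p 0.048, limma). MBNL2 had 861, 698 and 504 in the Flag-IPs, against 375, 321 and 332 in the HA-IPs (-0.97 ± 0.16, adjusted p 0.0033, limma), and QKI (-0.36, adjusted p 0.013, limma) and TIAL1 (-0.20, adjusted p 0.024, limma) were lower in the HA-IPs too. MBNL2 and QKI are also expressed in heart muscle, and their Flag-IP values, like the summed heart muscle markers, were highest in replicate 1 and lowest in replicate 3. ARGLU1 had the same order in the Flag-IPs. So did SR family genes of either direction, such as SRSF3 (lower in the HA-IPs) and SRSF7 (7233, 6902 and 6639, higher on average in the HA-IPs). The order was thus not particular to MBNL2, QKI and ARGLU1. In the HA-IPs the marker sum was highest in replicate 3 (3516, 2161 and 20196). QKI was highest there too (3131, 3094 and 3336), but MBNL2 was highest in HA-IP replicate 1. The part of that RNA in their differences was not tested.

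**Figure D5:**
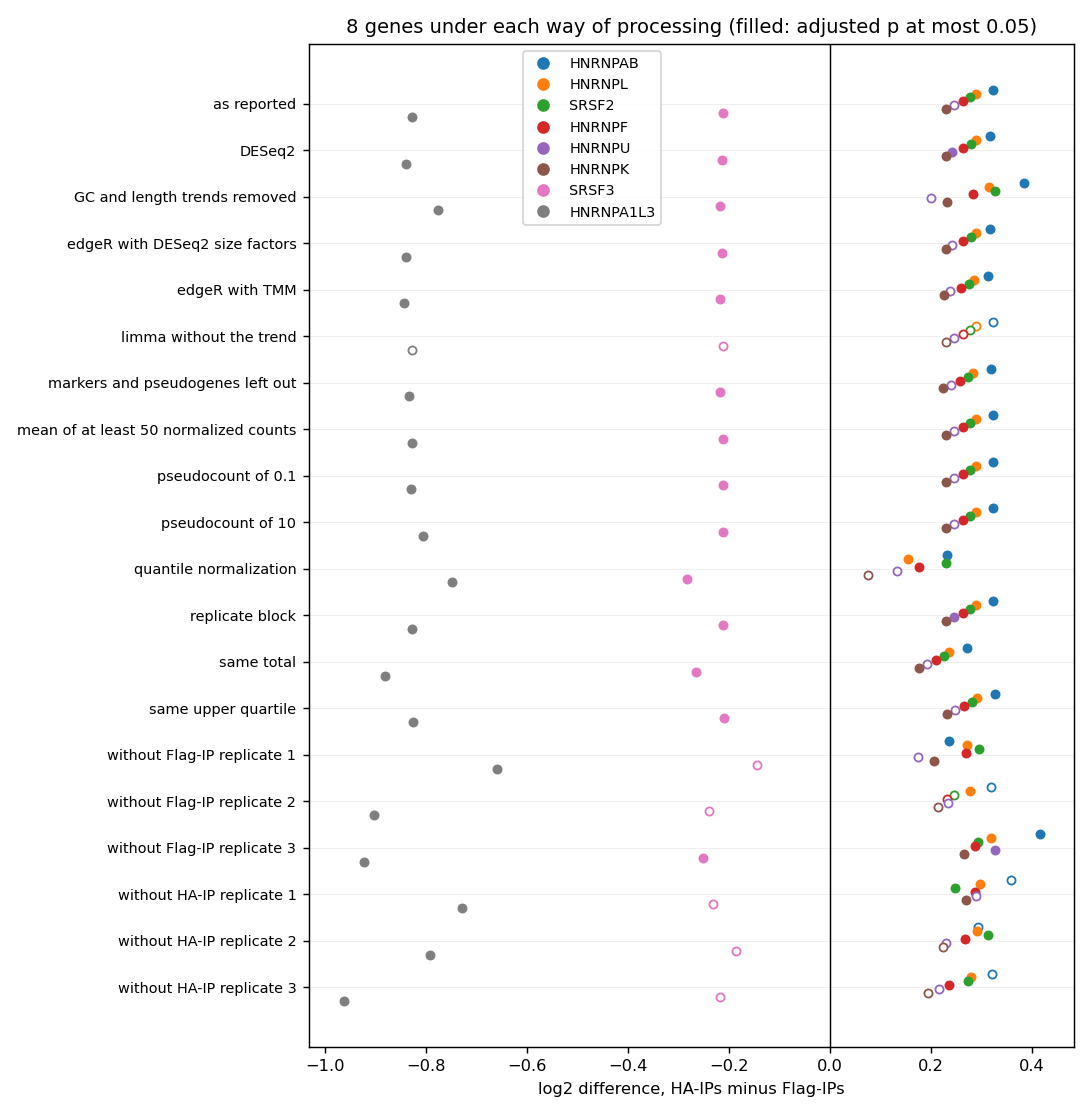
Log2 difference of the 7 called members and HNRNPU under the reported processing and 19 alternatives, filled where the adjusted p was at most 0.05. No point crosses 0, while SRSF3 and HNRNPAB lose their call in most fits that leave out 1 library and all 8 are open circles for limma without the trend.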

How the data were processed

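Poly(A) RNA from the 3 Flag-IPs and 3 HA-IPs was sequenced as paired reads of 150 bases. According to the submitters' processing notes the authors used Trimmomatic 0.36, STAR 2.5.2b, featureCounts from Subread 1.5.2 and DESeq2 (given as 3.16) on GRCh38. The authors deposited normalized counts per gene, a signal in which each library's reads were divided by a size factor, and kept genes with at least 10 reads in 3 or more samples. The same deposited table holds log2 fold changes and adjusted p-values that the authors computed for HA against Flag, none of which were used. The steps between values gave whole reads for 100% of values in every library (within 0.01 read).

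Differences were tested with limma 3.58.1 (R 4.3.3) with a mean-variance trend on log2(normalized counts + 1), HA-IPs minus Flag-IPs, two-sided, with Benjamini-Hochberg adjustment over 16834 genes and a threshold of 0.05. Such log2 differences understate changes of low genes. The fit was tested on simulated reads, and the permutation code on fixed example groups. edgeR 4.0.16 and DESeq2 1.42.0 on the recovered reads, other scalings, filters, pseudocounts and leaving out each library were alternatives. Annotation came from GENCODE 44, found for 99.1% of genes, and promoters from RefSeq.

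Values by library were given for every called member, for the 3 members of each family with the most counts per kb, and for TRA2A, TRA2B, SRSF1, SRSF2, SRSF3, SRSF7, HNRNPA1, HNRNPA2B1, HNRNPC, HNRNPU, HNRNPH1, HNRNPD and HNRNPDL. From each pathway list up to 3 called genes per direction, those with the smallest adjusted p, were named. The members, pairs and lists were chosen with earlier results of these data known. Other values given were chosen after they were seen (SRSF8, SRSF10, HNRNPUL1, HNRNPA1L2 and pseudogenes). A gene that this rule would name and a stretch of coding sequence are not reported here.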

Additional observations from a re-analysis of the deposited data

How the results depend on the processing

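Across 19 alternatives, 658 of 702 values of single members kept their direction where called and their side of the threshold, 22 lost a call and 22 gained one, and no called member changed direction. Members called higher in the HA-IPs numbered 5, against 9 with GC and length trends removed and 0 in limma without the trend (10 at an unadjusted p under 0.05). Members called higher in the Flag-IPs numbered 2, against 0 in limma without the trend (3 at an unadjusted p under 0.05). Of the pathway genes, 16 were higher in the HA-IPs, against 7 with quantile normalization, 6 with the same total and 0 in limma without the trend, and 6 were lower, against 0 in limma without the trend (20 and 5 at an unadjusted p under 0.05; lowest adjusted p 0.055). The SR family median of 0.0098 became -0.019 with quantile normalization and -0.043 with the same total, and it rose to 0.067 with GC and length trends removed. The cause of these shifts was not tested, except that limma without the trend called 188 of all genes against 2171.

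Leaving out 1 library gave 1 to 12 members higher in the HA-IPs, 1 to 3 higher in the Flag-IPs, 3 to 28 pathway genes higher and 1 to 8 lower in the HA-IPs, 5 to 9 pairs without overlap, an SR family median of -0.024 to 0.063 and an hnRNP median of 0.10 to 0.19. The 1 came without Flag-IP replicate 2 (HNRNPL) and the 12 without Flag-IP replicate 3. Leaving out a library cannot make separated groups overlap, so the number of pairs without overlap could not fall below the 4 found with all libraries. Over all genes 975 were called higher and 1196 lower in the HA-IPs, against 471 and 1576 with the same total. With the replicate number as a block 6 members were called higher in the HA-IPs (HNRNPU was added) and 2 lower, and 1662 of all genes were called. Deviations of same-numbered libraries correlated at -0.16, 0.03 and -0.31 over 13141 genes, against -0.24 to 0.30 for other pairings. These values gave no sign of pairing by number. They cannot settle whether same-numbered libraries came from 1 culture, because deviations from means of 3 libraries also carry other differences between libraries. With 3 libraries a group, the 95% interval of a gene near 0 such as SRSF5 ran from -0.14 to 0.17 on the log2 scale.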
